A study of Mus musculus with 4 samples.

Results

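The 10 genes described here come from a pair of protein families and were followed across progression of PDGF-B-driven mouse glioma. They are the epithelial membrane protein genes Emp1, Emp2 and Emp3, and the S100 genes S100a4, S100a6, S100a10, S100a11, S100a13, S100a16 and S100b. They were chosen by name, with earlier results of these data known. Each was read from 1 probe set annotated to that gene alone, the brightest on average where there were several. All 10 were found, on 11 probe sets, among the 19937 genes tested. The arrays compared 2 late-onset tumours labelled high-grade with 2 early-onset samples labelled low-grade, on a C57/Bl6 background. Every tumour was started by injecting embryos on embryonic day 14 with a retrovirus that expressed PDGF-B and EGFP together, and the cells were sorted for EGFP after the tumour had given symptoms. A late-onset sample came from 1 tumour, here tumour 1 and tumour 2, and an early-onset sample was a pool of cells from 2 tumours, here pool 1 and pool 2, so the early-onset spread is one between pools. Ages at collection and the time of onset were not used here, and no untransformed tissue was compared.

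Emp proteins are small membrane proteins that cross the membrane several times and belong, with the myelin protein Pmp22, to the wider claudin superfamily. They bind integrins and other receptors and alter adhesion, migration and membrane traffic. S100 proteins are small calcium-binding proteins that act as dimers: inside the cell they bind annexins, myosin and other cytoskeletal partners, and some are released and act on receptors such as the one encoded by Ager. In the brain S100b is best known from astrocytes and the oligodendrocyte lineage, while several S100a genes and EMP3 are counted in human tumours among genes of mesenchymal-like glioma. Fibroblasts, endothelium and macrophages express many of the same genes.

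The level is given throughout as the deposited log2 probe set value, so that a difference of 1 is a 2-fold change, and levels of different genes were not compared. RMA, named in the submitters' processing notes, is meant to bring arrays to one scale and compresses the changes of dim genes. Medians over all probe sets were 6.66 and 6.63 in tumours 1 and 2, against 6.71 and 6.70 in pools 1 and 2. Differences were tested with limma over all 19937 genes, and a gene is called where the Benjamini-Hochberg adjusted p from that fit was under 0.05. Of all genes, 14.7% were called, 6.59% as higher and 8.12% as lower in late-onset cells. Pdgfra and Olig2, genes of the oligodendrocyte progenitor lineage, were near the top of the range on every array. Pdgfra stood at 13.24 and 13.20 in the tumours, against 13.63 and 13.71 in the pools, and fell by 0.45 on the log2 scale (limma adjusted p 0.041). Olig2, named after its values were seen, stood at 11.93 and 11.89 in the tumours, against 12.09 and 12.12 in the pools. The labels call the samples biological replicates. With 2 samples a group an exact permutation test of a single gene cannot give a two-sided p below 0.333.

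Of the 10 genes, 2 rose, Emp1 and S100a10, against 6.59% of all genes, and 0 fell, against 8.12%. The other 8 were not called, and the differences ran from -0.82 for S100a16 to 2.91 for Emp1 around a median of 0.43. The median over all genes was -0.01. The groups did not overlap in 9 of the 10 genes, against 58.9% of all genes. In 6 of them (Emp1, Emp2, S100a6, S100a10, S100a11 and S100b) both tumours lay above both pools, as in 28.5% of all genes. In 3 of them (S100a4, S100a13 and S100a16) both tumours lay below both pools, as in 30.4% of all genes. Those 3 are S100 genes and their share is close to that of all genes. Emp3 was the gene whose groups overlapped. In sorted bulk samples fewer cells of a type and less RNA per cell cannot be told apart.

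**Figure D1:**
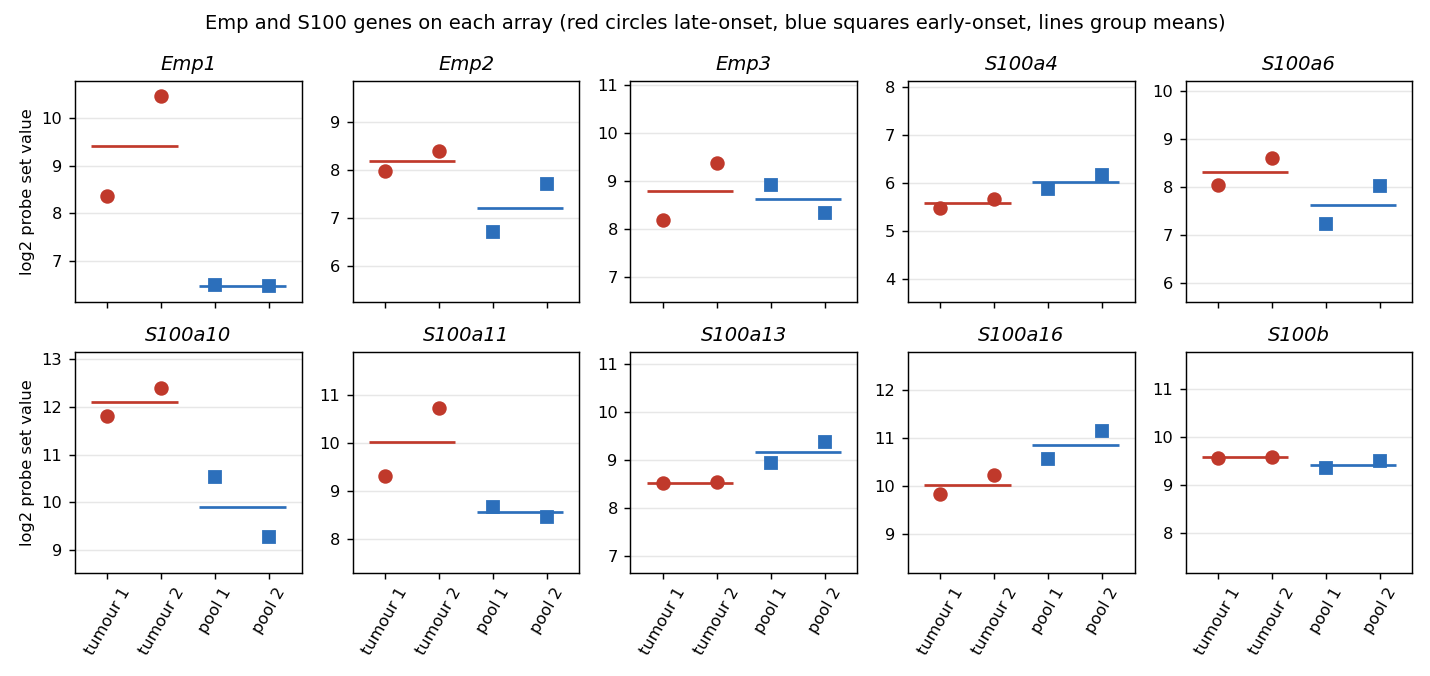
Log2 probe set value (vertical axis, each panel spanning the same number of log2 units) of the 10 genes on each array, with late-onset tumours as red circles, early-onset pools as blue squares and group means as lines. Emp1 and S100a10 were called higher in the tumours, and in each panel tumour 2 lies above tumour 1.

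Emp1, first described as a membrane protein of epithelial and tumour cells, changed most. It measured 8.36 in tumour 1 and 10.44 in tumour 2, against 6.51 in pool 1 and 6.48 in pool 2. Both tumours were clearly above the pools, which were nearly equal, and the tumours were far apart from each other. The mean was 9.40 ± 1.47 in late-onset and 6.50 ± 0.03 in early-onset cells (log2, SD, n = 2 each). The difference was 2.91 (SE 0.65, limma adjusted p 0.0434), a 7.49-fold rise with a 95% interval of 2.40 to 23.4. Tumour 1 alone stood 1.86 above the mean of the pools and tumour 2 stood 3.95 above it. The call was lost without pool 1 (adjusted p 0.16), without pool 2 (0.179) and with a robust prior (0.0961), and the difference was 1.86 without tumour 2.

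Emp2, which regulates integrin and caveolin traffic, lay higher in both tumours but was not called. It measured 7.98 and 8.39 in tumours 1 and 2, against 6.71 and 7.69 in pools 1 and 2. The nearest tumour and pool were closer to each other than the pools were. The difference was 0.98 (SE 0.34, 95% interval 0.12 to 1.85, limma adjusted p 0.126). Without pool 2, the higher pool, it was 1.48 and called (adjusted p 0.0463), and without pool 1 it was 0.49 (adjusted p 0.301).

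Emp3, the family member most used as a marker of human glioma, showed no separation. It measured 8.20 and 9.38 in tumours 1 and 2, against 8.92 and 8.35 in pools 1 and 2. Tumour 2 was the highest array and tumour 1 the lowest, with both pools between them. The difference was 0.16 (95% interval -0.89 to 1.21, limma adjusted p 0.847), and it was -0.43 without tumour 2 and -0.13 without pool 2. The interval holds changes of over 2-fold in the upward direction, so equality was not shown either.

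Of 8 other listed genes of the superfamily, 1 rose and 1 fell, against 6.59% and 8.12% of all genes, at a median of 0.11. Pmp22, the peripheral myelin protein gene closest to the Emp genes, measured 12.13 and 12.03 in tumours 1 and 2, against 11.34 and 11.26 in pools 1 and 2. It rose by 0.78 (SE 0.10, limma adjusted p 0.0108), with little spread in either group. Tmem47, a junction protein gene, measured 5.41 and 6.61 in the tumours, against 8.55 and 9.03 in the pools, and fell by 2.78 on the log2 scale (SE 0.41, adjusted p 0.0141). Both calls were lost without either pool, where far fewer of all genes were called too.

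S100a10 encodes the S100 protein that binds annexin A2, carries plasminogen activation to the cell surface and, unlike most of the family, does not bind calcium. It measured 11.81 and 12.39 in tumours 1 and 2, against 10.53 and 9.28 in pools 1 and 2. The tumours lay above both pools, and the pools differed by more than the tumours did. The mean was 12.10 ± 0.41 in late-onset and 9.91 ± 0.88 in early-onset cells (log2, SD, n = 2 each). The difference was 2.19 (SE 0.44, limma adjusted p 0.0318), a 4.57-fold rise with a 95% interval of 2.13 to 9.83. The call was lost without pool 2, the lower pool (difference 1.57, adjusted p 0.0644), and without tumour 2 (1.90, adjusted p 0.0922).

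Its partner Anxa2 had the same order of the 4 arrays. Anxa2 measured 9.0 and 9.53 in tumours 1 and 2, against 8.37 and 7.44 in pools 1 and 2, a difference of 1.36 (SE 0.34, limma adjusted p 0.0585). It was not called here, but was called without pool 1 (adjusted p 0.0409), after each array's median was subtracted (0.0484) and among genes above the median level (0.0441). Without pool 2 the difference was 0.90 (adjusted p 0.167). Htr1b, a serotonin receptor gene whose protein S100a10 brings to the membrane, measured 8.02 and 8.80 in the tumours, against 6.22 and 6.55 in the pools, and rose by 2.02 (SE 0.28, adjusted p 0.012). Its call was lost without either pool. Not every listed partner rose, and the potassium channel gene Kcnk3 stood at -0.68 (limma adjusted p 0.0272).

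S100a11, which binds annexin A1 and is linked to growth control and membrane repair, lies next to S100a10 in the genome. It measured 9.32 and 10.73 in tumours 1 and 2, against 8.66 and 8.47 in pools 1 and 2. As with Emp1 the pools were close together and tumour 2 stood well above tumour 1. The difference was 1.46 (SE 0.45, 95% interval 0.32 to 2.60, limma adjusted p 0.0952), and it was not called. With tumour 1 left out it was 2.17 (adjusted p 0.00443) and with tumour 2 left out 0.75 (adjusted p 0.0402); both passed, because the remaining tumour was then assumed to vary like the pools. A further probe set annotated to S100a11 gave a difference of 1.32, with 8.26 and 9.24 in the tumours, against 7.48 and 7.37 in the pools. RefSeq lists a pseudogene, S100a11-ps, and how signal divides between the copies was not tested. Anxa1 itself measured 4.86 and 8.52 in the tumours, against 6.27 and 5.62 in the pools, a difference of 0.74 (adjusted p 0.731) that was -1.09 without tumour 2.

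S100a6, or calcyclin, a gene of proliferating cells, lay higher in the tumours by a margin within the spread. It measured 8.04 and 8.59 in tumours 1 and 2, against 7.22 and 8.02 in pools 1 and 2. Tumour 1 and pool 2 were almost equal. The difference was 0.69 (SE 0.31, 95% interval -0.10 to 1.49, limma adjusted p 0.215), with 0.29 without pool 1, 1.09 without pool 2 and 0.42 without tumour 2. Cacybp, which encodes a calcyclin-binding protein, stood at 0.35 (adjusted p 0.357), with 0.05 without tumour 1 and 0.64 without tumour 2.

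S100a4, S100a13 and S100a16 lay lower in the tumours, and 0 of the 3 were called. S100a4, known as metastasin and as a fibroblast and macrophage gene, was dim. It measured 5.48 and 5.67 in tumours 1 and 2, against 5.87 and 6.17 in pools 1 and 2, a difference of -0.45 (SE 0.14, limma adjusted p 0.105), with -0.30 without pool 2. Only 29.0% of genes had a mean level at or below it. Myh9, the myosin heavy chain gene whose product S100a4 binds, stood at -0.35 (adjusted p 0.2), with -0.16 without pool 1.

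S100a13 takes part, with Fgf1 and Syt1, in the release of proteins that lack a signal peptide, including interleukin 1 alpha. It measured 8.52 and 8.54 in tumours 1 and 2, against 8.94 and 9.39 in pools 1 and 2. The tumours were almost equal and the difference was -0.63 (SE 0.17, 95% interval -1.05 to -0.21, limma adjusted p 0.0658). It passed among genes above the median level (adjusted p 0.0474), and without pool 2 it was -0.41 (adjusted p 0.223). The genes of its partners and cargo fell. Fgf1 measured 7.59 and 7.56 in the tumours, against 8.04 and 8.01 in the pools (difference -0.45, adjusted p 0.0376), Syt1 stood at -1.14 (adjusted p 0.0451) and Il1a at -5.14 (adjusted p 0.00289). Il1a is also a gene of macrophages and Syt1 a marker of neurons. Of 12 neuron markers, a list that includes Syt1, 6 fell and 1 rose, against 8.12% and 6.59% of all genes. Their median was -0.73, and the part of these cell types in the values was not tested. The call of Fgf1 was lost without any 1 of the arrays and that of Syt1 without pool 1, pool 2 or tumour 1, whereas Il1a was called without each.

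S100a16, a widely expressed and less studied member, measured 9.85 and 10.22 in tumours 1 and 2, against 10.56 and 11.15 in pools 1 and 2. The gap between the highest tumour and the lowest pool was smaller than the distance within either group. The difference was -0.82 (SE 0.23, 95% interval -1.41 to -0.22, limma adjusted p 0.0805), with -0.53 without pool 2 (adjusted p 0.281).

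Promoter sequence is shown for the 3 genes with a match to a loose form of the AP-1 motif. This lets the letters be set beside their values: Emp1 and S100a11 lay higher in both tumours and S100a16 lay lower. AP-1, a dimer of Fos and Jun proteins, binds TGACTCA, which is TGAGTCA on the other strand. The string searched, TGANTCA, was looser and took any base at N. TGATTCA in Emp1 and TGAATCA in S100a16 count as matches only through that looser string. The stretches are 140 bases long, upstream of an annotated start, from RefSeq on GRCm38.p6, all on the plus strand of the genome, 5′ to 3′, with the motif in capitals. They are chr6:135362779-135362918 for Emp1, chr3:93520342-93520481 for S100a11 and chr3:90540896-90541035 for S100a16.
Emp1: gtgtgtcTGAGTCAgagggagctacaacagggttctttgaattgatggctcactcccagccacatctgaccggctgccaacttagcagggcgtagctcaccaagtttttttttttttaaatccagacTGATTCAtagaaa
S100a11: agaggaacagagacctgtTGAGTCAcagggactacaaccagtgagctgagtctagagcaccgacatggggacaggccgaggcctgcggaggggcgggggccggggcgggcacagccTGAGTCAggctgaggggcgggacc
S100a16: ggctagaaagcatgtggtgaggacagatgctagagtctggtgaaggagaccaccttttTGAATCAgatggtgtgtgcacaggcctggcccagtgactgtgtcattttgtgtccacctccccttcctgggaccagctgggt
In Emp1 the matches begin 145 and 25 bases before the annotated start, in S100a11 136 and 38 bases before it, and in S100a16 there was 1 match, 192 bases before it. In all, 9 of the 10 genes, S100a10 being the other, matched the promoter table by Entrez identifier, with 12 windows between them. The 250 bases before each start were searched on both strands for 5 motifs, picked after the sequences and the expression values were known. TGANTCA was in 3 of the 12 windows, against 6.75% of the 32851 windows of all genes. The TATA box TATAAA was in 2, those of Emp3 and S100a4, against 12.4%, the E-box CAGGTG in 1 (S100a16) against 17.2%, the hypoxia response core ACGTG in 1 (S100a11) against 16.6%, and the TEAD motif GGAATG in 0 against 12.6%. The stretches printed hold no match of the other motifs. A match is a string of letters and says nothing of binding in these cells.

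S100b was the flattest of the 10. It measured 9.57 and 9.59 in tumours 1 and 2, against 9.35 and 9.50 in pools 1 and 2, a difference of 0.16 (SE 0.10, 95% interval -0.11 to 0.42, limma adjusted p 0.393). The interval leaves room for a rise of up to 1.34-fold. Of 12 astrocyte markers, a list that includes S100b, 6 fell and 0 rose, against 8.12% and 6.59% of all genes. Their median was -0.92. The glutamate transporter genes Slc1a2 and Slc1a3 stood at -1.93 and -0.89 (limma adjusted p 0.00303 and 0.0251).

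**Figure D2:**
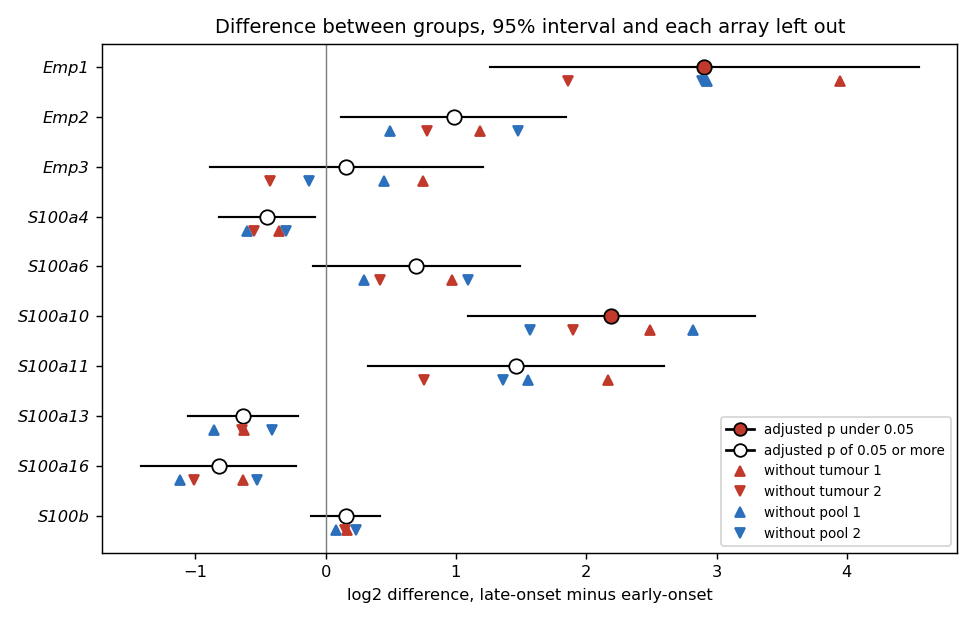
Difference in log2 value between late-onset and early-onset cells (horizontal axis) for each gene, with its 95% interval from limma (line) and the value without each array (triangles). Filled circles mark Emp1 and S100a10, the genes called. Emp1 drops to 1.86 without tumour 2, and Emp3 changes sign without tumour 2 or pool 2.

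The 6 S100a genes among the 10 sit on chromosome 3 in separate groups of neighbours, by the order of genes in RefSeq. S100a13, S100a16, S100a4 and S100a6 belong to a run of 12 measured S100 genes from S100a1 to S100a9, with no other protein-coding gene between consecutive members of that run. S100a11 and S100a10 adjoin each other, 56 protein-coding genes further on. In the run of 12 the median difference was -0.27, with 5 genes below, 2 above and 5 overlapping. In the pair both genes lay above, at 1.46 and 2.19. Of all genes, 30.4% lay below and 28.5% above. Whether the run and the pair differ was not tested. Of 10 further measured S100 genes, including 8 of the run, 0 were called by limma, against 14.7% of all genes. With array weights 0 were called, with a mean-variance trend 1 was, and in the main fit 1 had an unadjusted p under 0.05. That gene was S100a1, named after its values were seen, which neighbours S100a13 and is known from heart and brain. S100a1 measured 10.04 and 10.03 in the tumours, against 10.52 and 10.99 in the pools, a difference of -0.72 (SE 0.17, adjusted p 0.052), and it passed in 7 of 15 other settings. S100a1 and S100a13 overlap at their ends in RefSeq, so the probe sets may not be independent. Pool 2 lay above pool 1 in 8 of the 12 genes of the run and in 0 of the 2 genes of the pair, against 53.5% of all genes.

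**Figure D3:**
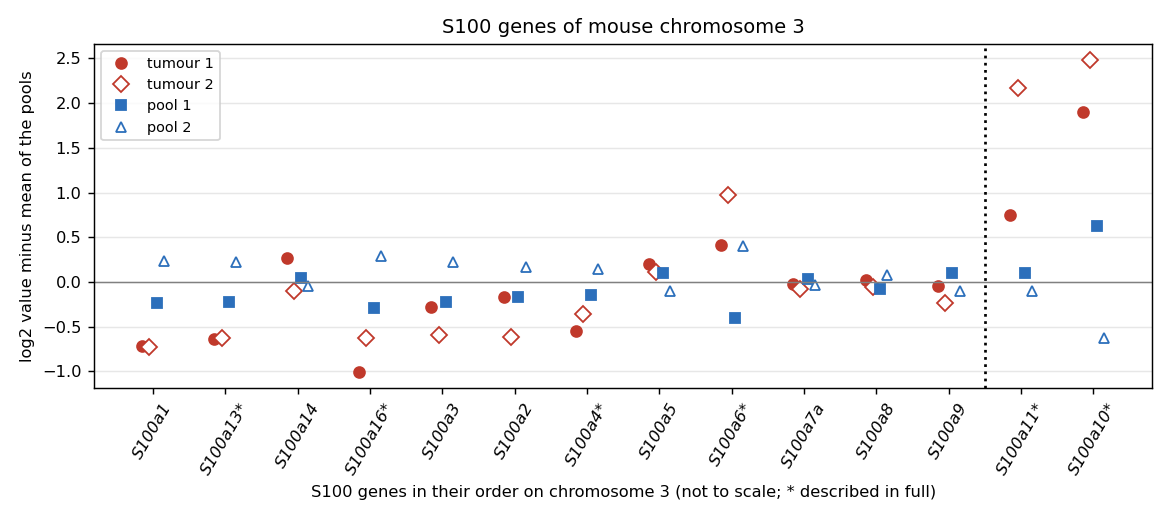
Log2 value minus the mean of the pools (vertical axis) for the 14 measured S100 genes of chromosome 3 in their order (not to scale), by array. Left of the dotted line S100a5 and S100a6 are the genes with both tumours above both pools, and right of it S100a11 and S100a10 lie above them in both tumours.

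Spread within groups was unusually wide for several of the genes. Tumour 2 lay above tumour 1 in all 10, against 50.5% of all genes, with a median gap of 0.48. The gap for Emp1 was 2.09, a 4.24-fold difference between tumours of the same label, and 99.8% of genes had a gap no larger. Gaps of 1.41 for S100a11 and 1.18 for Emp3 ranked at 99.5% and 99.2%. Between the pools, S100a10 differed by 1.25, Emp2 by 0.98 and S100a6 by 0.80, ranking at 99.8%, 99.6% and 99.1%. S100a10 was lower in pool 2, whereas Emp2 and S100a6 were higher there. S100b and S100a13 differed by 0.02 each between the tumours. A single tumour cannot be tested against another, so these gaps are given as values.

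Markers of several other cell types were also higher in tumour 2 than in tumour 1. They were 16 of 19 for microglia and macrophages (median gap 0.77) and 9 of 10 for endothelium (0.73). For oligodendrocytes they were 6 of 7 (0.83) and for astrocytes 10 of 12 (0.32). Fewer oligodendrocyte progenitor markers were higher in tumour 2, 3 of 11, with a median gap of -0.04. For granulocytes the count was 6 of 10 (0.05) and for neurons 8 of 12 (0.20), against 50.5% of all genes. Of 12 pericyte and fibroblast markers, 11 were higher in tumour 2 than in tumour 1, by a median of 2.40. Their summed level was 11.99 and 13.01 (log2) in tumours 1 and 2, against 11.97 and 12.08 in pools 1 and 2. The bright progenitor gene Cspg4, also a pericyte marker, is in that sum, and the mean of the list was 6.59 and 8.53 in the tumours, against 6.81 in each pool. The fibroblast matrix genes Dcn, Lum and Col1a1, named after their values were seen, measured 4.96, 5.05 and 7.26 in tumour 1 and 9.23, 8.44 and 10.23 in tumour 2. In the pools they ranged from 5.84 to 6.34, from 4.36 to 5.11 and from 7.44 to 7.57. Gaps between the tumours were smaller for Rgs5 (0.13), Kcnj8 (0.23) and Abcc9 (0.30), also in the list, and Cspg4 stood at -0.42. In late-onset cells 1 of the 12 markers fell and 0 rose, against 8.12% and 6.59% of all genes. The gene that fell was Rgs5 (-0.56, limma adjusted p 0.0325). The part of any of these lists in the gaps of Emp1, Emp3 and S100a11 was not tested.

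Between the groups, macrophage markers were lower in the tumours. Of 19 microglia and macrophage markers 18 fell and 0 rose, against 8.12% and 6.59% of all genes, at a median of -3.68. Their summed level was 11.13 and 11.81 in tumours 1 and 2, against 15.34 and 15.14 in pools 1 and 2. Csf1r, the receptor gene on which macrophages depend, stood at -4.11 (limma adjusted p 0.0013). S100a4, S100a6, S100a10, S100a11 and Emp3 are all expressed by macrophages, and the part of these cells in their values was not tested. Endothelial markers summed to 9.75 and 10.35 in the tumours, against 10.31 and 9.64 in the pools. Tumour 2 and pool 1 were the higher arrays for that sum, as they were for Emp3.

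**Figure D4:**
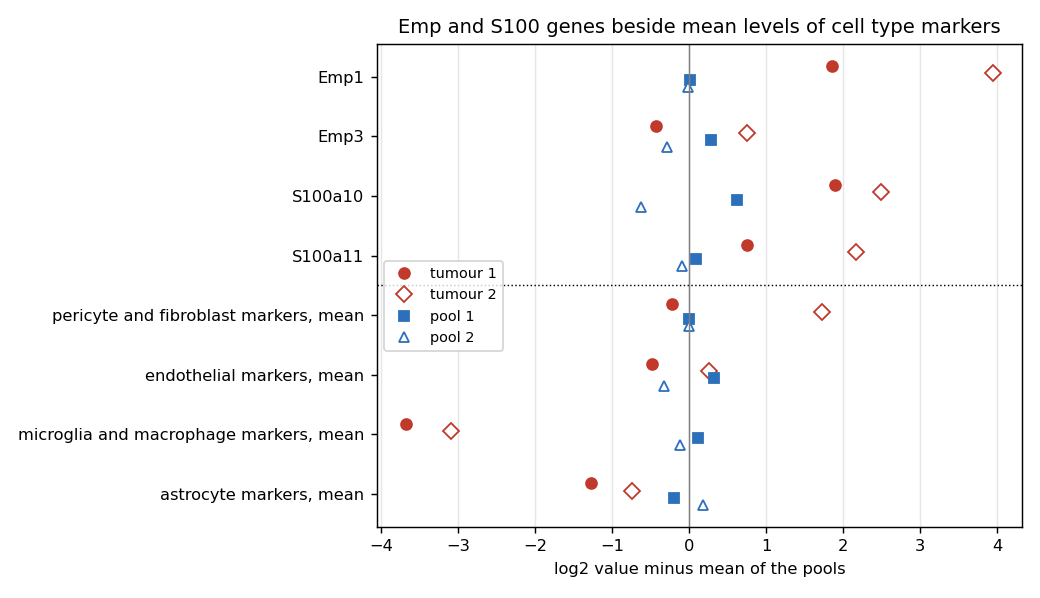
Log2 value minus the mean of the pools (horizontal axis) for 4 of the genes and for the mean of 4 lists of cell type markers, by array. Tumour 2 lies at 3.95 for Emp1 and is the array with the highest pericyte and fibroblast mean, while macrophage markers lie below the pools in both tumours.

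Among 31 measured partners and receptors of the proteins, 3 rose and 5 fell, at a median of -0.02. Of all genes, 6.59% rose and 8.12% fell. Htr1b, the integrin gene Itgb1 (0.67, limma adjusted p 0.0177) and Anxa6 rose. Il1a, Syt1, Fgf1, the potassium channel gene Kcnk3 (-0.68, adjusted p 0.0272) and the innate receptor gene Tlr4 (-1.57, adjusted p 0.0223) fell. Ager, which encodes a receptor for released S100 proteins, measured 7.01 and 7.0 in the tumours, against 7.12 and 7.02 in the pools. Its difference was -0.07 (95% interval -0.32 to 0.18, adjusted p 0.711), with 0.00 after quantile normalization. Ahnak, a scaffold that binds S100a10 with annexin A2, stood at 0.29 (adjusted p 0.406), with 0.017 without tumour 2 and 0.57 without tumour 1. Fewer of the partners passed without pool 1 or pool 2 than the 8 with all arrays, as was so for all genes.

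Of 50 measured genes in a list for mesenchymal glioma, 11 rose and 4 fell, against 6.59% and 8.12% of all genes. The median of the list was 0.39. The matrix gene Tnc measured 10.04 and 11.08 in the tumours, against 8.64 and 7.40 in the pools, and rose by 2.54 (SE 0.51, limma adjusted p 0.032). The galectin gene Lgals1 measured 11.62 and 12.09 in the tumours, against 9.98 and 9.30 in the pools, and rose by 2.21 (SE 0.27, adjusted p 0.00938). The tetraspanin gene Cd151 rose by 1.28 (adjusted p 0.0226). Plau (-2.52), which encodes urokinase, the calponin gene Cnn2 (-1.92) and Lgals3 (-1.24), a galectin gene also of macrophages, fell (adjusted p 0.00788, 0.0161 and 0.0433). Like the genes described in full, the list was higher in tumour 2 than in tumour 1, in 45 of its 50 genes. Leaving out either pool lowered the count called in the list, as it did for all genes. Without tumour 1 the count for the list rose while that for all genes fell.

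The genes with the most similar profile over the 4 arrays were sought for the 7 members that spanned at least 1 log2 unit. Likeness was the root mean square difference between values centred on their own mean, over the 4 arrays. It reflects the shape and the size of the changes, but not the level. A like order of arrays or direction follows from this choice and is no separate result. Emp1 was closest to Aldh1a3, a retinoic acid synthesis gene, at 0.25, then to the histone gene H2ac4 (0.55) and n-R5s136 (0.57). Aldh1a3 measured 9.09 and 10.88 in the tumours, against 6.96 and 6.52 in the pools. S100a10 was closest to Hmga2 (0.12), a fetal chromatin protein gene, to the integrin gene Itga8 (0.14) and to Lgals1 (0.20). Hmga2 measured 9.67 and 10.07 in the tumours, against 8.29 and 7.27 in the pools. S100a11 was closest to Col6a1 (0.17), a collagen gene of connective tissue, to Pdlim7 (0.17) and to Cda (0.18), a cytidine deaminase gene.

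The distance shrinks with a gene's own range, so values are not compared between genes. Emp2 was nearest to Lgi3 (0.11) and to the mitotic genes Cenpa (0.14) and Pimreg (0.16). S100a6 was nearest to Eif2ak2 (0.08), Lgi3 (0.09) and Grb14 (0.12). Emp3 was nearest to Pde3a (0.07), the class II antigen gene H2-Ab1 (0.11) and Gcnt4 (0.14), which like Emp3 were highest in tumour 2. S100a16 was nearest to Cyp46a1 (0.05), Kifc2 (0.06) and the neuronal kinesin gene Kif5c (0.06), all lower in the tumours with 0 of the 3 called.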

How the data were processed

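The authors deposited log2 probe set values for 34760 probe sets on 4 arrays. RMA and affy version 3.4.2 are named, per the submitters' processing notes, with no parameters, and the array's annotation was used to name probe sets: 21640 had 1 gene symbol, 1321 had several and 11799 had none. Genes with several probe sets were represented by the one with the highest mean, which gave 19937 genes.

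Late-onset minus early-onset differences were fitted with limma 3.58.1 in R 4.3.3 (lmFit, eBayes, no trend, not robust) on the values as deposited, with 2 residual degrees of freedom and a prior of 3.27 per gene. Adjusted p-values are Benjamini-Hochberg over all genes, with a threshold of 0.05. The procedure was tested on simulated data. The number of arrays limits the precision. Where 1 array is left out, the lone sample of its group is assumed to vary like the other group.

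The 10 genes and the other lists were chosen with earlier results of these data known. Of each other list up to 6 called members with the largest differences, and direct partners, were named; the text marks names picked later. Between-array correlations over all probe sets were 0.992 for the pools, 0.988 for the tumours and 0.972 to 0.974 between groups. Alternatives covered the variance model, scaling, filters on dim genes, probe set choice, array weights, a replicate block and each sample left out.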

Additional observations from a re-analysis of the deposited data

How the results depend on the processing

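Over the 10 genes, 135 of the alternative values kept direction and side of the threshold, 7 lost a call, 5 gained one and 2 changed sign, both for Emp3. Lost calls of Emp1 (2.91 with a robust prior and with the replicate block, adjusted p 0.0961 and 0.0602) and of S100a10 (2.19 with the replicate block, 0.077) came with an unchanged difference. S100a13 (-0.63, among genes above the median) and S100a16 (-0.82, with the replicate block, adjusted p 0.0366) gained one. The replicate block left 1833 genes called in all and 744 higher, and among the 10 genes 0 higher and 1 lower. A robust prior left 1 higher, and the filter at the median gave 1 lower. The labels do not say that numbers mark shared animals or days, and same-numbered samples did not deviate together (r = -0.04 over genes), so the block is not a paired analysis. With each array left out in turn, differences ranged from 1.86 to 3.95 for Emp1, 0.49 to 1.48 for Emp2, -0.43 to 0.75 for Emp3, 0.29 to 1.09 for S100a6, 1.57 to 2.82 for S100a10, 0.75 to 2.17 for S100a11, -0.86 to -0.41 for S100a13 and -1.11 to -0.53 for S100a16. The count of the 10 called higher ranged from 1 to 3, and 0 were called lower.

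All genes called numbered 2931 (1313 higher, 1618 lower), with 850 to 2577 (291 to 1212 higher, 559 to 1365 lower) over the arrays left out. At adjusted p thresholds of 0.1 and 0.01 there were 4539 and 824, of which 2169 and 290 were higher and 534 lower at 0.01. After each array's median was subtracted, 1658 genes were called higher and 1423 lower. Other S100 genes had 1 called with a trend, a robust prior, quantile or cyclic loess normalization and either filter, and 0 to 1 without an array. The other superfamily genes had 1 above the median and 0 to 2 without an array. Partners had 5 with the block and 2 to 7 without an array, and the mesenchymal list 4 to 26. Pde3a was at -0.040 after quantile normalization and at -0.044 after cyclic loess. Ager was at 0.00 (0.00076) after quantile normalization. Without 1 array, ranges that changed sign were -1.09 to 2.58 for Anxa1, -0.24 to 2.73 for Col1a1, -1.13 to 3.14 for Dcn, -0.18 to 0.64 for Gcnt4, -0.34 to 0.55 for H2-Ab1 and -0.57 to 0.59 for Pde3a. The cause of these shifts was not tested.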
